A study of Mus musculus with 3 samples.

Results

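The genes described here build and serve the primary cilium: subunits of intraflagellar transport (IFT), kinesin motors, Bardet-Biedl syndrome (BBS) proteins, transition zone proteins, and a few associated factors. They were chosen by name, with earlier results of these data known. A member is a gene whose symbol is Ift, Bbs, Tctn or Nphp followed by a digit, or *Tmem67*, *Tmem216*, *Tmem231*, *Arl3*, *Kif3a*, *Kif3b*, *Kif17*, *Ofd1*, *Mks1* or *Cc2d2a*. The choice by name uses no measured value, and it found 36 genes of the 18193 with a probe set, named by 60 probe sets. *Arl6*, *Arl13b* and *Rpgrip1l* fall under the same choice and were not analysed here.

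The data are 3 Affymetrix expression arrays, 1 for each stage of palate fusion. The tissue came from the maxillae of ICR fetuses labelled female and taken at E14, with no mutation and no drug, which were kept in suspension culture in BGJB medium so that the palatal shelves met and fused in the bottle. The array before fusion held the edge of shelves that had not met after 5 h of culture. The arrays during and after fusion held tissue taken after 24 h and 60 h, so that stage and hours in culture changed together and cannot be told apart. The sources differ on the piece of tissue: the labels give the shelf edge for every stage, while the methods give the edge in one place and, during and after fusion, the median palate in another. The methods also state 5 samples for each stage and a separate RNA preparation from each palate, and how these samples relate to the 1 array of a stage was not stated. With 1 array per stage there was no replicate, no test between stages could be made, and a ratio below compares these 3 arrays.

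The primary cilium is a single antenna-like extension of the cell surface, built on a centriole, that receives hedgehog and other signals. IFT trains carry building material from the base to the tip under kinesin-2 and back under dynein-2, the IFT-B complex being tied mainly to the outward and the IFT-A complex to the return journey. The BBSome moves membrane proteins out of the cilium, and the transition zone at its base acts as a gate. Motile cilia of airway-type epithelium are built with the same transport machinery, and loss of many of these genes in mice or humans causes ciliopathies, in which cleft palate is a known feature.

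Values below are MAS5 signals, scaled so that the 3 arrays had the same trimmed mean, and each gene is given by its brightest probe set. The background floor of an array, set by 81 probe sets of olfactory, vomeronasal and taste receptors, was 19.4 before, 13.3 during and 14.7 after fusion. Above it lay 56.9% of the probe sets before, 65.8% during and 61.5% after fusion, and 35, 35 and 36 of the 36 cilium genes. All 7 measured markers of palate epithelium and all 8 of palate mesenchyme were above the floor on every array. The number of arrays limits the precision. The one measure of spread was how far probe sets for the same gene disagreed: their log2 ratios had an SD of 0.37 (during over before fusion), 0.46 (after over before) and 0.44 (after over during).

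After fusion the cilium genes were higher as a group. Over before fusion, 19 of 36 (52.8%) were more than 2-fold higher, where 12.6% of the 13999 genes with a ratio were. One, *Bbs12*, was more than 2-fold lower (2.78%, against 9.55% of all genes). The median log2 ratio of the members was 1.04 and that of all genes -0.09, a distance of 1.13. In all, 31 members had a ratio above 1 and 5 below 1, from 0.212 for *Bbs12* to 6.11 for *Nphp4*. The number past 2-fold depended on the scaling of the arrays. It was 9 (25%, against 8.31% of all genes) with the poly-A spike-in controls and 25 (69.4%, against 15.5%) with the signals as deposited. Under 5 other scalings 30 of these members stayed above 1 and 4 below 1, while *Arl3* and *Ofd1* changed sides. A higher signal in dissected tissue can come from more cells of a type or from more RNA per cell, and these cannot be told apart.

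Little of this difference was present at 24 h. During over before fusion, 1 of 35 members with a ratio (2.86%) was more than 2-fold higher, where 5.47% of 13941 genes were, and 0 were more than 2-fold lower, where 3.18% were. The median log2 ratio was 0.18, beside -0.05 for all genes, and became -0.10 when the arrays were scaled to the poly-A spike-in controls. For 18 members the side of 1 depended on the scaling in this comparison. After over during fusion, 12 of 36 (33.3%) were more than 2-fold higher, against 8.72% of 14342 genes, and 1 (2.78%) was lower, against 5.06%. The number higher ran from 9 (25%, against 6.95% of all genes) to 18 (50%, against 10.8%) over the other scalings. There the median was 0.86, beside -0.03 for all genes, and 33 members had a ratio above 1. The 3 comparisons share arrays, so that they are not independent of one another.

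**Figure D1:**
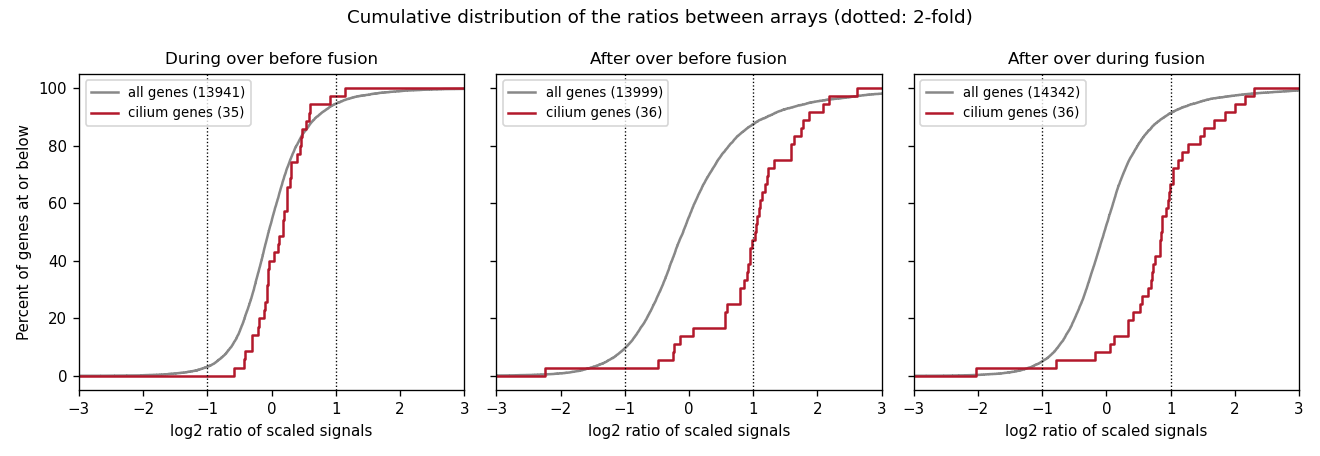
Cumulative distribution of log2 ratios of scaled signals, for all genes (grey) and for the cilium genes (red), in the 3 comparisons. The x axis is the log2 ratio, the y axis the percent of genes at or below it, and dotted lines mark 2-fold. The red curve lies to the right of the grey one after fusion, with medians of 1.04 and -0.09 for after over before, and close to it for during over before fusion, with 0.18 and -0.05.

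Several members lay close to the 2-fold line. After over before fusion, *Ift122* (2.07), *Bbs2* (2.06) and *Bbs1* (2.04) were just past it, and *Ift74* (1.97), *Ift27* (1.93) and *Bbs9* (1.93) just short of it. With a line at 1.5-fold, 28 members (77.8%) were higher and 1 (2.78%) lower, where 21.1% and 23.1% of the 13999 genes were.

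The members' promoters are shown next, because many of these genes were higher together after fusion and many cilium genes are known to carry an X-box, the binding sequence of RFX transcription factors. Promoters, from 250 bases before to 50 after the annotated start, were taken from RefSeq (build GRCm38.p6) for 32 of the 36 members. *Ift81*, *Ift122*, *Ift80* and *Tmem67* had none. An X-box was searched as GTNNCC, 0 to 3 bases, GGNNAC (relaxed) and as GTTNCC, 0 to 3 bases, GGNAAC (strict). Both forms read the same on either strand, and each strict match is a relaxed one as well. The 14 relaxed matches in 12 members follow, 5′ to 3′ on the strand of the gene, with the match in capitals and 8 flanking bases where the promoter has them.
*Bbs1* (chr19:4906605-4906634, minus strand, first capital at base 2 after the start): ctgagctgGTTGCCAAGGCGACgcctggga
*Bbs4* (chr9:59353464-59353493, minus strand, first capital at base 24 after the start): ctcagctgGTCGCCCGGGAAACggtcggct
*Bbs7* (chr3:36613489-36613518, minus strand, first capital at 121 bases before the start): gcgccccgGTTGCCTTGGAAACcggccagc
*Ift22* (chr5:136908079-136908108, plus strand, first capital at 63 bases before the start): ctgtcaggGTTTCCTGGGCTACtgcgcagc
*Ift22* (chr5:136908109-136908138, plus strand, first capital at 33 bases before the start): tgttcccgGTCGCCGTGGAAACtgaccagc
*Ift57* (chr16:49699199-49699228, plus strand, first capital at 87 bases before the start): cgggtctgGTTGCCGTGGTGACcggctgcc
*Ift57* (chr16:49699226-49699254, plus strand, first capital at 60 bases before the start): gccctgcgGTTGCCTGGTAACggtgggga
*Mks1* (chr11:87853183-87853212, plus strand, first capital at 24 bases before the start): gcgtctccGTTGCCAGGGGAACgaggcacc
*Nphp4* (chr4:152477903-152477932, plus strand, first capital at 231 bases before the start): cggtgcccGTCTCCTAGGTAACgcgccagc
*Tctn1* (chr5:122264411-122264432, minus strand, first capital at base 37 after the start): ctgtgactGTTGCCCGGGCAAC
*Tctn2* (chr5:124598679-124598708, plus strand, first capital at 62 bases before the start): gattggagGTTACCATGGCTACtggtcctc
*Tctn3* (chr19:40612351-40612379, minus strand, first capital at 140 bases before the start): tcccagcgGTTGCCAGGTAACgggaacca
*Tmem216* (chr19:10555723-10555752, minus strand, first capital at base 20 after the start): tgtacgcaGTTTCCATGGGGACtgaacatg
*Tmem231* (chr8:111933781-111933810, minus strand, first capital at base 12 after the start): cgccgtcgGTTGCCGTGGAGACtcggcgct

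Relaxed X-box letters were found in 12 of 32 members (37.5%), beside 4.38% of the 27025 genes with a promoter and 5.40% of the 14452 that also have a probe set. Strict letters were found in *Bbs7*, *Ift57*, *Mks1*, *Tctn1* and *Tctn3*, 5 of 32 (15.6%), beside 0.936% and 1.07%. The shorter site GTTGCC, searched on either strand and overlapping the X-box, was found in 16 of 32 members (50%), beside 14.1% and 14.7%. Among the 16 members with a promoter that were more than 2-fold higher after than before fusion, 8 held the relaxed and 3 the strict letters. Among the 16 others, 4 held the relaxed and 2 the strict letters. This split depends on the scaling. With the poly-A controls *Bbs1*, *Bbs7*, *Ift57* and *Mks1* did not pass 2-fold, and among them are all 3 higher members with strict letters. A match describes the letters and is no evidence of binding, and the absence of one says only that the letters are not in this window.

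The 250 bases before the start of *Ift57* are printed because they hold a strict and a relaxed match, both in capitals.
*Ift57* (chr16:49699044-49699293, plus strand): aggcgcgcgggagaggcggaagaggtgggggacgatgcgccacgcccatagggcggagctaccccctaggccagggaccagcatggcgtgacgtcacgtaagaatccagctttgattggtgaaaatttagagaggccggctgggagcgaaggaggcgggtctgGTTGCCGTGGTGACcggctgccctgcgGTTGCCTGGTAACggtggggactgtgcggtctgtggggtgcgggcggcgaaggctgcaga

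Of the IFT-B complex, the larger of the train's complexes, 11 subunits are members. All 11 were higher after than before fusion under every scaling, and 6 passed 2-fold (3 to 10 over the scalings). *Ift172*, a peripheral subunit, stood first, with signals of 121, 143 and 516 before, during and after fusion, 4.25-fold higher after than before. *Ift22*, a small GTPase-like subunit, had 390.4, 593 and 1335, 3.42-fold higher. *Ift88*, the core subunit whose loss in the mouse leaves cells without cilia, had 161, 183 and 503, 3.12-fold higher. In these genes the array after fusion stood apart, and only *Ift22* was already 1.52-fold higher during fusion.

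The other IFT-B members were closer to 2-fold. *Ift57*, whose promoter is printed above, had 243, 285 and 563 on the 3 arrays, 2.32-fold higher after than before fusion. *Ift20*, which also works at the Golgi, had 249, 348 and 567, 2.28-fold higher. *Ift81*, which binds tubulin together with *Ift74*, had 295, 363 and 647, 2.19-fold higher. For each of these the order of the arrays was before, during, after, but for *Ift57* the side of 1 for during over before changed with the scaling. *Ift74* had 404, 388 and 795, which was 1.97-fold higher over before and 2.05-fold over during fusion. *Ift46*, a core subunit, had 1034, 957 and 1869, 1.81-fold higher. *Ift52*, also of the core, had 365, 349 and 636, the smallest ratio of the 11 IFT-B members at 1.74. *Ift27* and *Ift80* lay within this range. During fusion the 11 IFT-B ratios to before ran from 0.926 to 1.52, and none passed 2-fold.

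The IFT-A complex is tied to the return journey and to the entry of receptors into the cilium. Of its subunits 3 are members, and all 3 passed 2-fold both over before and over during fusion. Its subunits outside the choice by name did not share this. After over before fusion *Wdr35* was 2.40-fold higher, while *Wdr19* and *Ttc21b* had ratios of 0.916 and 0.764. *Ift43* had 507, 627 and 1519, 3.00-fold higher after than before fusion. *Ift140* had 379, 281 and 807, 2.13-fold higher over before and 2.88-fold over during fusion. *Ift122* had 273, 259.9 and 566, 2.07-fold and 2.18-fold. Scaled to the poly-A controls, *Ift43* alone passed 2-fold over before fusion, and scaled to the hybridization controls *Ift122* no longer passed it over during fusion. For *Ift140* and *Ift122* the signal during fusion was the lowest of the 3, but for *Ift122* the side of 1 for during over before changed with the scaling. Of both complexes, all 14 members had a ratio above 1 after over before fusion, from 1.74 to 4.25, with a median log2 ratio of 1.11. This does not hold for every measured subunit: besides *Wdr19* and *Ttc21b*, the IFT-B subunit *Ttc30a1*, no member, had a ratio of 0.859.

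**Figure D2:**
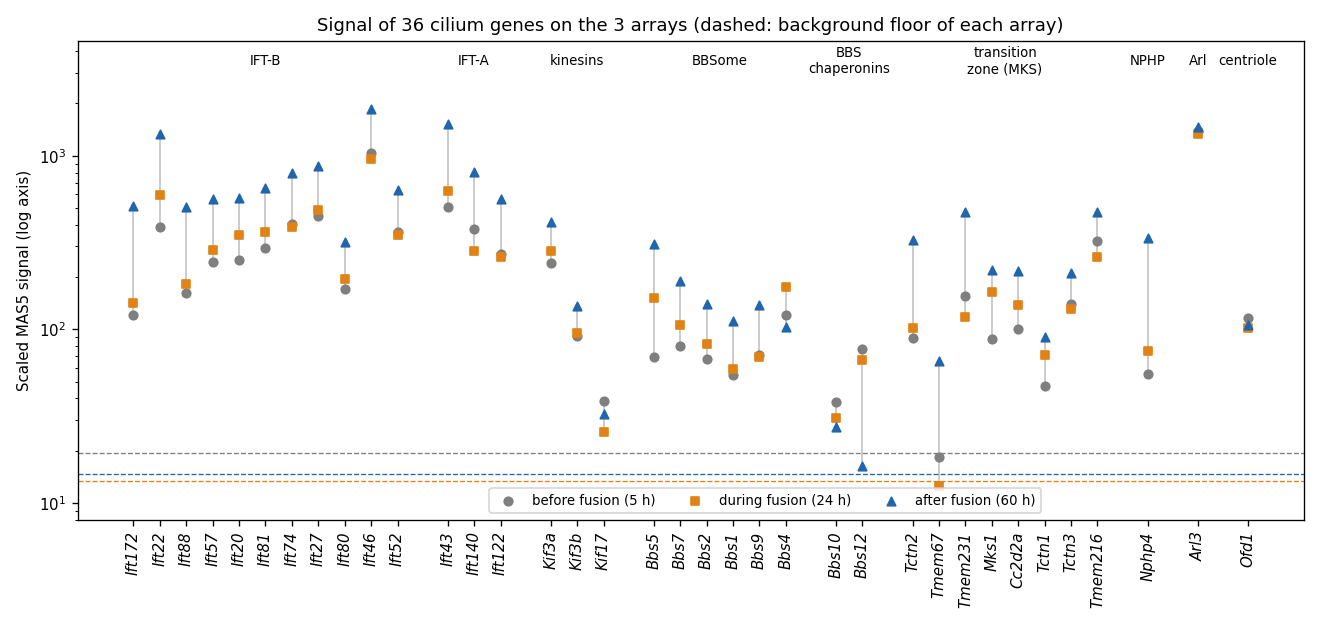
Scaled MAS5 signal (log axis) of the 36 genes, grouped by role, before (grey circles), during (orange squares) and after fusion (blue triangles), with the background floor of each array as a dashed line. There is 1 array per stage and so no error bar. Blue lies on top in all 14 IFT genes, while *Bbs12* drops from 77.4 to 16.4, and *Arl3* hardly differs between arrays.

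The brightest probe sets of the kinesin motors did not pass 2-fold. *Kif3a*, the motor subunit of heterotrimeric kinesin-2, had 241 before, 283 during and 418 after fusion, 1.73-fold higher. *Kif17*, which forms a homodimeric kinesin-2, had 38.6, 25.6 and 32.4, 1.19-fold lower after than before fusion. Its other probe set above the floor, with 20.7, 18.8 and 37.8, was 1.82-fold higher over before and 2.01-fold over during fusion. By these probe sets none of the 3 kinesin genes passed 2-fold in any comparison, and their median log2 ratio was 0.57 for after over before fusion. *Kif3b*, the partner of *Kif3a*, was also higher after than before fusion under every scaling, and its 4 probe sets gave ratios of 1.48, 1.62, 2.24 and 2.88. The probe sets of *Kif3a* did not share a direction: the 4 ratios after over before fusion were 1.73, 0.871, 3.47 and 0.999. Probe sets of one gene can match different transcript ends, and which transcript each of these reads was not tested.

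Of the 6 BBSome subunits among the members, 4 were more than 2-fold higher after than before fusion. With the arrays scaled to the poly-A controls *Bbs5* alone was. The BBSome subunits *Ttc8* and *Bbip1*, outside the choice by name, had ratios of 0.695 and 0.599 for after over before fusion. *Bbs5*, which binds phosphoinositide lipids, had 68.9 before, 152 during and 311 after fusion. It was the only member past 2-fold during over before fusion, at 2.20-fold, and it was 4.51-fold higher after than before. Scaled to the poly-A controls, it no longer passed 2-fold during fusion. *Bbs7*, a propeller subunit with a strict X-box in the list above, had 80.4, 105 and 189, 2.35-fold higher. *Bbs2* had 67.7, 82.3 and 139.7, 2.06-fold higher. *Bbs1*, the subunit that binds the recruiting GTPase, had 54.7, 59.0 and 112, 2.04-fold higher. In these 4 genes the order was before, during, after, but for *Bbs1* the side of 1 for during over before changed with the scaling.

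*Bbs9* and *Bbs4* behaved differently from each other. *Bbs9* had 71.3, 69.4 and 138, 1.93-fold higher after than before fusion. *Bbs4*, a scaffold subunit that is also found at centriolar satellites, had 121, 176 and 103, highest during fusion and 1.18-fold lower after than before. Its 4 probe sets gave ratios of 0.849, 0.877, 0.997 and 1.38 for after over before fusion and did not share a direction.

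*Bbs10* and *Bbs12* are chaperonin-like proteins that help to assemble the BBSome, and both were lower after fusion. *Bbs12* had 77.4 before, 66.6 during and 16.4 after fusion, the last close to the floor of 14.7. It was 4.73-fold lower after than before and 4.07-fold lower after than during fusion, and it was past 2-fold under every alternative tried. *Bbs10* had 38.1, 30.9 and 27.3, 1.40-fold lower after than before. Its other probe set, with 44.0, 31.3 and 13.4, was under the floor after fusion and so at least 3.00-fold lower than before fusion.

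Of the transition zone genes 9 are members. Of these, 6 were more than 2-fold higher after than before fusion and 0 lower, with a median log2 ratio of 1.33. With the poly-A controls *Mks1* and *Cc2d2a* did not pass 2-fold. *Nphp4*, a scaffold of the nephronophthisis module, had 55.1, 75.2 and 336, which at 6.11-fold was the highest ratio among the members. *Tctn2*, a tectonic, had 88.8, 101 and 325, 3.66-fold higher. *Tmem231*, a membrane protein of the Meckel syndrome (MKS) module, had 156, 117 and 471, 3.02-fold higher over before and 4.01-fold over during fusion. For these 3 genes most of the difference lay between 24 h and 60 h.

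*Tmem67*, which encodes meckelin, was the one member under the floor, with 18.3 before and 12.5 during fusion. It reached 65.3 after fusion, at least 3.37-fold higher than before and at least 4.90-fold higher than during fusion. *Mks1*, a B9 domain protein with a strict X-box, had 87.9, 165 and 221, 2.51-fold higher after than before and 1.88-fold higher during than before fusion. *Cc2d2a*, a C2 domain protein of the same module, had 100.3, 138 and 216, 2.15-fold higher. In *Mks1* the larger step lay before 24 h. In the other transition zone members past 2-fold with a ratio in each comparison it lay after 24 h, but for *Cc2d2a* this changed with the scaling.

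*Tctn1*, another tectonic, had 47.3, 70.9 and 89.8, 1.90-fold higher after than before fusion. *Tmem216* had 321, 259.9 and 474, 1.47-fold higher, the smallest ratio of the group. *Tctn3* lay between these, and none of the 3 passed 2-fold in any comparison. All 9 transition zone members had a ratio above 1 for after over before fusion under each of the 6 scalings.

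*Arl3* and *Ofd1* hardly differed between arrays. *Arl3*, a GTPase that releases lipid-bound cargo inside the cilium, had 1386, 1333 and 1455, a ratio of 1.05 for after over before fusion. *Ofd1*, a protein of centrioles and centriolar satellites, had 116, 102 and 105, a ratio of 0.909. Both distances were smaller than the SD among a gene's probe sets given above, and the side of 1 changed with the scaling.

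In 14 members more than 1 probe set names the gene, and 11 of them had at least 2 ratios with a direction for after over before fusion. The probe sets gave one direction in 8 of the 11 and mixed directions in *Bbs4*, *Kif17* and *Kif3a*. The other probe set of *Nphp4*, with 2.79 before and 15.3 after fusion, was under the floor before and gave a ratio without direction. The 2 probe sets of *Ift122* had ratios of 2.07 and 2.17, and the 2 of *Ift81* above the floor 2.19 and 2.03. For 11 members the brightest probe set carries a suffix that marks probes shared between transcripts. Of these 11, 5 have marked probe sets alone, among them *Bbs5*, *Ift20* and *Ift43*, whose ratios past 2-fold could not be checked against an unmarked probe set. Of the 6 with an unmarked one, *Ift122* and *Ift81* were past 2-fold and remained so by it.

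**Figure D3:**
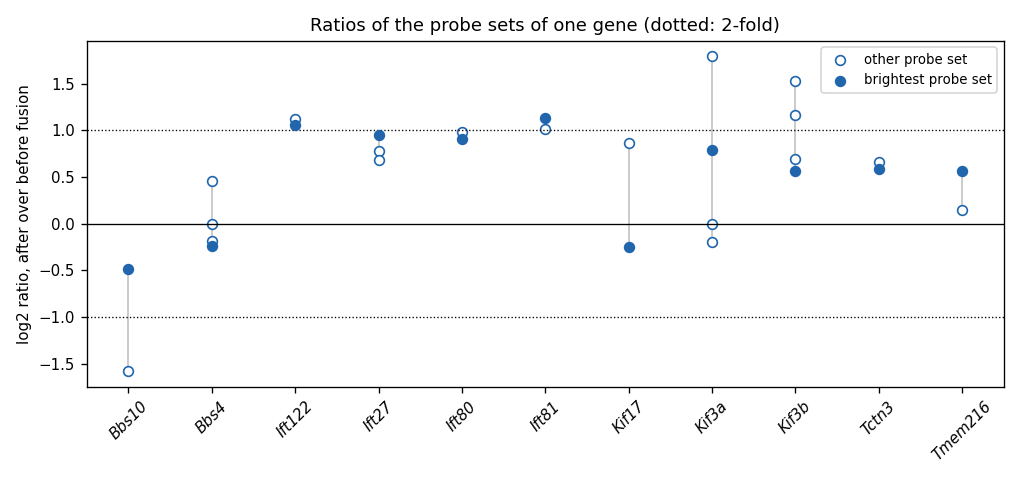
Log2 ratio after over before fusion for every probe set whose ratio has a direction, in the 11 members with more than 1 such ratio. Filled points are the brightest probe set of a gene, open points its others, and dotted lines mark 2-fold. The points of *Ift122* and *Ift81* lie together at or just above 2-fold, and those of *Kif3a* spread from -0.20 to 1.79.

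Cilium genes outside the choice by name were followed through fixed lists of 64 further genes, of which 63 had a ratio. After over before fusion 17 were more than 2-fold higher and 3 lower, beside 12.6% and 9.55% of all genes, with a median log2 ratio of 0.24. During over before fusion 4 of the 63 were higher and 1 lower, beside 5.47% and 3.18% of all genes, with a median of -0.06. Of 11 other IFT subunits 5 were more than 2-fold higher after than before fusion (2 to 6 over the scalings). *Ttc30b*, an IFT-B subunit, had 276, 466 and 1193, 4.32-fold higher. *Traf3ip1*, which encodes IFT54, had 68.4, 99.2 and 280.4, 4.10-fold higher. The others were *Hspb11*, *Wdr35* and *Ttc26*, between 2.34-fold and 2.58-fold. In all, 7 of the 11 had a ratio above 1 and 4 below, 1 of the 4 on a side that changed with the scaling. The 4 were *Wdr19* (0.916), *Ttc30a1* (0.859), *Kifap3* (0.853) and *Ttc21b* (0.764).

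Dynein-2 drives the return journey. Of its 7 measured genes, 3 passed 2-fold after over before fusion, beside 12.6% of all genes, namely *Tctex1d2*, *Wdr34* and *Dync2li1*. The number ran from 1 to 4 over the scalings, and of these 3 genes *Tctex1d2* alone passed under every scaling. *Tctex1d2*, a light chain, had 311, 627 and 1529.8, 4.91-fold higher. Of 7 other BBS genes, 3 passed 2-fold (2 to 3 over the scalings), beside 12.6% of all genes, namely *Sdccag8*, *Wdpcp* and *Lztfl1*. The median log2 ratio of the 7 was -0.08 and turned to 0.10 with the signals as deposited. Below 1 were 4 of the 7, namely *Bbip1*, *Ttc8*, *Trim32* and *Mkks*, 1 of them on a side that changed with the scaling. *Sdccag8*, a centrosomal protein, had 48.2, 82.2 and 201, 4.17-fold higher. *Wdpcp*, a planar polarity effector needed for ciliogenesis, had 57.2, 73.5 and 231, 4.03-fold higher. *Sdccag8*, *Wdpcp* and *Lztfl1* were all lowest before fusion.

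Of 21 other transition zone and basal body genes, 6 were more than 2-fold higher and 1, *Invs*, lower after than before fusion. Among all genes 12.6% and 9.55% were. In the list the number higher ran from 4 to 6 and the number lower from 1 to 2 over the scalings. *Tmem107*, a further protein of the MKS module, had 624, 1869 and 6898, 11.1-fold higher. *Cep83*, a distal appendage protein by which the centriole docks to the membrane, had 130.1, 270.0 and 554, 4.26-fold higher. Both were past 2-fold during over before fusion as well, *Cep83* at 2.08-fold, as was *Cep290* at 2.90-fold. The number of the list past 2-fold higher there was 3 and ran from 2 to 4 over the scalings. The median log2 ratio of the list was 0.28 and ran from -0.10 to 0.45 over the 6 scalings, so that its side of 0 was not settled.

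Genes of the ciliary membrane and its cargo gave a median ratio close to 1. Of 18, 1 was more than 2-fold higher (*Tulp3*) and 2 lower (*Gpr161*, *Evc2*) after than before fusion, beside 12.6% and 9.55% of all genes. Over the scalings the number higher ran from 0 to 2 and the number lower from 2 to 4. The median log2 ratio was -0.06 and ran from -0.43 to 0.12 over the scalings. *Gpr161*, a ciliary receptor that restrains hedgehog signaling, had 191, 106 and 42.9, 4.45-fold lower. Of 7 hedgehog pathway genes that act at the cilium or report on it, 4 were more than 2-fold lower and 0 higher. Among all genes 9.55% and 12.6% were. The 4 were *Gli1*, *Ptch1*, *Sufu* and *Gli3*, of which *Gli3* lay on the line at 2.0007-fold lower. The number lower ran from 3 to 6 over the scalings. The median log2 ratio of the 7 was -1.0005 and stayed between -1.38 and -0.82 over the scalings. *Hhip* alone of the 7 had a ratio above 1.

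Among 7 genes tied to cilium disassembly, 3 were more than 2-fold higher after than before fusion, beside 12.6% of all genes, namely *Nek2*, *Kif24* and *Ccp110*. *Nek2*, a centrosomal kinase, had 171, 235 and 1089.5, 6.36-fold higher. The 5 measured dividing cell genes did not pass 2-fold in either direction, with a median log2 ratio of -0.63, and up to 3 of them were more than 2-fold lower under other scalings. Of 5 RFX factors with a ratio, 2 were more than 2-fold higher after than before fusion, beside the same 12.6% of all genes. *Rfx2* had 33.0, 31.0 and 192, 5.80-fold higher, and *Rfx3*, like it a regulator of ciliary genes, had 106, 99.0 and 300.02, 2.82-fold higher. At 24 h their ratios to before fusion were 0.941 and 0.932, on a side of 1 that changed with the scaling, and *Rfx4* was under the floor on every array.

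**Figure D4:**
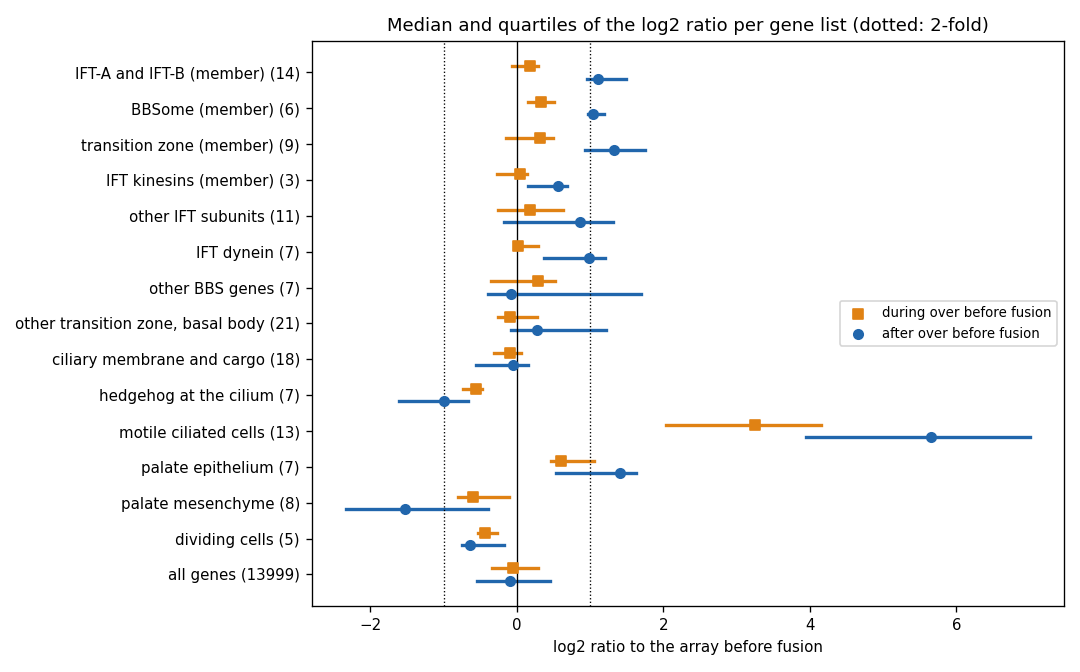
Median (points) and quartiles (bars) of log2 ratios, relative to before fusion, for the lists of cilium genes, for cell type markers and for all genes, during (orange) and after fusion (blue). The number of genes with a ratio stands in parentheses, and dotted lines mark 2-fold. After fusion the IFT members have a median of 1.11, the hedgehog genes -1.0005 and the markers of motile ciliated cells 5.66.

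Markers of other cell types moved between the same arrays. Of 14 markers of motile ciliated cells, 6 passed the floor before, 12 during and 13 after fusion, and their summed signal was 282, 3788 and 24888. *Foxj1*, the regulator that defines these cells, had 3.90 before fusion, under the floor, then 263 and 979.9. *Dynlrb2*, a dynein light chain, had 22.5, 1009 and 5908, 262-fold higher after than before fusion. *Lrrc23*, a radial spoke protein, had 20.3, 420.1 and 3066, 151-fold higher. All 13 markers with a ratio were more than 2-fold higher after than before fusion, and 10 of 12 during over before, beside 12.6% and 5.47% of all genes. Of these ratios, 7 after over before and 6 during over before rest on a signal before fusion that was under the floor. *Spag6* was under the floor throughout. The part of these cells in the higher signal of the IFT, BBS and transition zone genes was not tested.

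Epithelial and mesenchymal markers differed as well. Of 7 palate epithelium markers 4 were more than 2-fold higher and 0 lower after than before fusion, with summed signals of 8978 before, 15429 during and 22039.7 after. *Krt5*, a basal keratin, had 313, 1174 and 2295, 7.33-fold higher, while *Trp63*, a basal cell factor, was 1.63-fold lower. Of 8 palate mesenchyme markers 5 were more than 2-fold lower and 0 higher, with a median log2 ratio of -1.52. Their summed signals were 15121, 11271 and 12291, of which *Vim*, 1.45-fold higher after than before fusion, made up 5890.2, 5489 and 8538. *Tbx22*, a regulator of palate growth, had 226, 215 and 28.7, 7.86-fold lower. All 5 macrophage markers were more than 2-fold higher, with sums of 338, 711 and 2035, and all 4 measured muscle markers lower, with sums of 488, 166 and 90.2. The part of any of these tissues in the ratios of the cilium genes was not tested.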

How the data were processed

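The labels state total RNA from microdissected palate, labelled with biotin and hybridised to 1 array per stage. The authors computed the signal intensity of each probe set with MAS5, named in the submitters' processing notes, and the deposited intensities are linear, with no scaling target stated. Trimmed means (2% left out at each end) of the deposited intensities were 124, 150.0 and 139.7, so the arrays were multiplied by 1.11, 0.918 and 0.986 to a common one. Of 45037 probe sets that are no controls, 34945 name 1 gene, 932 several and 9160 none on the platform annotation, and 34741 were matched through their gene ID to RefSeq (GRCm38.p6), used for names and promoters. The probe set brightest on average in the deposited signals stood for a gene. The floor was the 95th percentile of 81 receptor probe sets on each array. A signal under it was raised to it, which makes the ratio a bound, and a gene under it on both arrays got no ratio. No test was run.

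Members and lists were chosen with earlier results of these data known. Genes named with values are members past 2-fold in any comparison, the extremes of each role group, the 3 members with the highest mean signal, up to 10 pathway genes and up to 3 markers per list by the size of the ratio after over before fusion. Genes behind a count of 5 or fewer, *Rfx3*, *Foxj1*, *Vim*, *Trp63* and the single probe sets were named after their values were seen. Alternatives were 5 other scalings, 2 other floors, 3 other choices of probe set and a 1.5-fold line. Python 3.11.15, pandas 2.3.3 and numpy 2.4.6 were used, and the ratios were tested on simulated data.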

Additional observations from a re-analysis of the deposited data

How the results depend on the processing

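Counts of members past 2-fold depended on the scaling of the arrays. After over before fusion the number of members more than 2-fold higher was 19, and it was 9 with the arrays scaled to the poly-A controls, which dropped *Bbs1*, *Bbs2*, *Bbs7*, *Cc2d2a*, *Ift122*, *Ift140*, *Ift20*, *Ift57*, *Ift81* and *Mks1*, while 8.31% of all genes passed. It was 25 with the signals as deposited, where 15.5% of all genes passed. Scaling to hybridization controls dropped *Bbs1* and *Bbs2*, quantile normalization *Bbs1*, and the median over all probe sets *Bbs7* and *Ift57*. The number more than 2-fold lower was 1. It was 2 with the median over all probe sets and with probe sets not marked as shared, beside 7.37% and 10.1% of all genes. It was also 2 with the median over probe sets above the floor, a choice made after seeing the data, beside 8.72% of all genes. During over before fusion the number higher was 1, and 2 with hybridization controls or the signals as deposited, 0 with the poly-A controls and 3 at 1.5-fold, where 1 was lower. The median log2 ratio there, 0.18, reversed to -0.0956 with the poly-A controls. After over during fusion the number higher was 12, and 18 with one median, 9 with hybridization controls, which dropped *Bbs5*, *Ift122* and *Ift74*, and 10 with the poly-A controls or the signals as deposited, which dropped *Bbs5* and *Ift74*. There 26 were higher and 2 lower at 1.5-fold, and 2 were more than 2-fold lower with probe sets not marked as shared. The cause of these shifts was not tested. Scaling alone moved the median log2 ratio of all genes by between -0.28 and 0.28 for during over before, -0.38 and 0.18 for after over before and -0.17 and 0.14 for after over during fusion. The distance of the members' median from it ran from 1.08 to 1.15 for after over before, from 0.84 to 0.91 for after over during and from 0.17 to 0.23 for during over before fusion.

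No paired analysis was possible because there is 1 array per stage, and leaving out an array was not possible either. Signals near the floor limit *Tmem67*, *Bbs12* after fusion, *Kif17* and *Bbs10*, whose ratios rest on dim probe sets.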
